A study of Mus musculus with 19 samples.

Results

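The clustered replication-dependent histone genes were taken as every row of the deposited count table whose symbol begins with Hist1h, Hist2h, Hist3h or Hist4h. That rule, which uses names and no measured value, found 68 of 38887 rows. By name they comprised 6 linker histone H1 genes, 21 H2A, 19 H2B, 9 H3 and 13 H4 genes, with 54 in cluster 1, 10 in cluster 2, 3 in cluster 3 and 1 in cluster 4. In the mouse annotation GENCODE M21 (assembly GRCm38, or mm10) 63 of the 68 identifiers were found: 49 on chromosome 13, 10 on chromosome 3, 3 on chromosome 11 and 1 on chromosome 6. Of these, 60 were annotated with a single exon. A pair of rows shared the symbol Hist1h2ad and are told apart below by their identifiers. The annotation lists 59 of the 63 as protein-coding. Hist1h2al and Hist3h2bb-ps are listed there as processed pseudogenes, Hist1h2aj as an unprocessed pseudogene and Hist2h2bb as a noncoding RNA. They were kept because the rule goes by symbol, and they are counted below under the class of their name. The older cluster names also cover genes that belong to germ cells or are not strictly tied to replication. Hist1h1t, Hist1h2aa and Hist1h2ba are known as testis histones, and Hist2h2be encodes an H2B variant known from olfactory neurons.

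Gene expression was measured by RNA sequencing in 19 libraries of mouse splenic myeloid-derived suppressor cells (MDSC), a myeloid population that can dampen T cell immunity. The labels give no strain, genotype or treatment, and no group is said to carry a transgene. The following groups were compared. The 6 libraries of adult PMN-MDSC (the neutrophil-like form, gated as CD11b+Ly6CintLy6G+) and the 3 of adult M-MDSC (the monocyte-like form, CD11b+Ly6ChighLy6G-) came from mice aged 6 to 8 weeks. The 5 libraries of newborn PMN-MDSC and the 5 of newborn M-MDSC came from mice aged 7 days. CD11b-bead enrichment and cell sorting were used, and one protocol also names Ly6G-antibody columns for PMN-MDSC. Ly6g, the gene of the surface antigen in the PMN-MDSC gate, stood at 19.6 ± 4.46 and 213 ± 25.1 CPM (counts scaled to library size) in adult and newborn PMN-MDSC. It stood at 0.277 ± 0.479 and 0.877 ± 0.836 CPM in adult and newborn M-MDSC. Values after ± are SDs over libraries unless named SE.

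Replication-dependent histone genes supply the histones that package newly copied DNA. Core histones H2A, H2B, H3 and H4 form the nucleosome, and H1 binds the linker DNA between nucleosomes. Their transcription rises at the entry into S phase, when cyclin E with CDK2 acts on the coactivator NPAT, and their messages are degraded when replication ends. Unlike other messages, most end in a conserved stem-loop bound by the stem-loop binding protein, SLBP, in place of a poly(A) tail. Copies of one class differ by few bases, so short reads often fit several genes. The libraries were made with a total RNA kit, which can retain RNA without a tail, while another label of each sample reads mRNA. Whether poly(A) RNA was selected is not given in the sources used here.

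The stem-loop is shown first, because it sets these messages apart. A pattern search of the bases past the stop codon in the M21 transcripts found it in 41 members, starting 21 to 58 bases past the stop codon (median 31), among the 47 members whose model holds any base there. The capitals mark the 6 bases on each side that pair to form the stem, and the lower-case bases are the loop. The first form was found in 23 members of the H1, H2A, H2B and H3 classes, Hist1h1c, Hist1h2bf, Hist1h3b and Hist3h2a among them. The second was found in 7 H4 members, Hist1h4h among them, the third in 5 members of the H1, H2B and H3 classes and the fourth in 2 H4 members. The remaining 4 members had another 3 forms.
Stem-loop of 23 members: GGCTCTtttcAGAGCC
Stem-loop of 7 H4 members: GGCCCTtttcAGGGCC
Stem-loop of 5 members: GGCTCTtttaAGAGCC
Stem-loop of 2 H4 members: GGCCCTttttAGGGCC

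The bases before the start site were compared because the members moved together with age, as described below. Upstream sequences of 59 members were found in RefSeq (GRCm38.p6). Among the 250 bases before the start site, on both strands, the letters CCAAT were found in 81.4% of members against 34.5% of the 27025 genes listed. TATAAA was found in 44.1% against 13%, and the octamer ATTTGCAT in 22% against 1.61%. By class, CCAAT was present in every matched H1, H2A and H2B member, in 71.4% of H3 and in 25% of H4 members. The octamer was present in 38.9% of H2A and 37.5% of H2B members and in no H1, H3 or H4 member. These shares are not independent. In 13 pairs of an H2A and an H2B gene the starts lie 173 to 306 bases apart, so 1 match can count for both genes. Hist1h2ah, for example, is counted with an octamer although the 120 bases before its start hold none, while those of its partner Hist1h2bk do. A match is a description of the letters only. The 120 bases before the start are printed below for one member of each class and for Hist3h2a, whose values differed between the cell types. Capitals mark matches to the searched letters or to their reverse complements. The window of Hist1h4h holds none of them, and no printed match overlaps another. The windows of Hist1h4h and Hist2h3b overlap exons of noncoding transcripts on the opposite strand.
Hist1h1b, chr13:21780626-21780745 minus strand: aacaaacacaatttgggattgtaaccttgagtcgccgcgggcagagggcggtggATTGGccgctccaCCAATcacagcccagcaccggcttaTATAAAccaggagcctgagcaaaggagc
Hist1h2ab, chr13:23750968-23751087 plus strand: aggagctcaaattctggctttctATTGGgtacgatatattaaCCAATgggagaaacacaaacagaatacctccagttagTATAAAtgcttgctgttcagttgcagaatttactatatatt
Hist1h2bk, chr13:22035701-22035820 plus strand: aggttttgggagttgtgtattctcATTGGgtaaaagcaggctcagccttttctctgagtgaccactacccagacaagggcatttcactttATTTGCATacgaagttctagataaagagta
Hist2h3b, chr3:96268534-96268653 plus strand: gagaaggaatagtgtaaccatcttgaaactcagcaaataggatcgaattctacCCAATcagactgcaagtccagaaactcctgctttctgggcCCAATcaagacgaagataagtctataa
Hist1h4h, chr13:23530924-23531043 plus strand: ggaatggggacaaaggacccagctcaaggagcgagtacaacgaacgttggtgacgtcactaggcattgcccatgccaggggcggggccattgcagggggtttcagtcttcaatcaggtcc
Hist3h2a, chr11:58954565-58954684 plus strand: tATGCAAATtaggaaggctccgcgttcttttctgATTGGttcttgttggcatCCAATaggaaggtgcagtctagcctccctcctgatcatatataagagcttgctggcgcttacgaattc

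Depth limited what could be seen of the weakest members. Total counts were 827744 to 2965896 in the 10 libraries of batch 1 and 14026193 to 45135933 in the 9 of batch 2, batch being a label of the samples and present in each group. A count of 0 in 1 library allows up to 3 counts, or 0.990 to 3.29 CPM in batch 1 and 0.0601 to 0.197 CPM in batch 2. The floor covers counting error only, because without molecular identifiers several reads can come from 1 molecule. The labels do not say whether replicates are different animals, and the p-values therefore describe the spread among the libraries at hand, technical or not. Each of the 5 batch 1 libraries of PMN-MDSC resembled 1 batch 2 library of its group more than the others. For these pairs (adult replicates 1 and 32, 2 and 33, 3 and 34, newborn replicates 2 and 37, 3 and 38) the deviations from the group mean correlated across genes at 0.33 to 0.51, against -0.36 to 0.13 in the other 10 pairs. Their counts differed by more than sampling noise (median chi-square per gene 0.658 to 0.908, noise 0.455). The other 10 pairs differed more (1.28 to 3.59). An excess over noise cannot tell different animals from a second library of the same RNA. The main fit nevertheless counts both libraries of a pair as replicates, and its SEs and adjusted p-values rest on that. Deviations of the 2 newborn batch 1 libraries mirror each other (-0.36 and 0.36 against replicate 38), so their correlations are not independent. Whether a pair shares an animal or an RNA is not stated, and counts of calls without the batch 1 libraries of PMN-MDSC are given beside the main ones for the comparisons that use them. The Y-linked Kdm5d had 0 counts in the adult libraries, against 3.57 to 20.2 CPM in newborn PMN-MDSC and 1.28 to 17.8 CPM in newborn M-MDSC. Age and the mix of sexes cannot be told apart here.

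Histone RNA was far more abundant in newborn than in adult MDSC of both kinds. The 68 members together took 0.154% ± 0.0262 of all counts in adult PMN-MDSC (n = 6) and 1.19% ± 0.0936 in newborn PMN-MDSC (n = 5). In M-MDSC they took 0.222% ± 0.114 in adults (n = 3) and 2.62% ± 1.14 in newborns (n = 5). Scaled to library size, the summed level was 1115 to 1723 CPM (median 1257) in adult PMN-MDSC, against 14481, 16097, 14032, 15568 and 15806 CPM in newborns. In M-MDSC it was 1135, 1791 and 3319.7 CPM in adults against 15928, 51820.3, 21678, 15282 and 25856 CPM in newborns. The ages did not overlap in either cell type, and the lowest newborn library stood 8.15-fold above the highest adult one in PMN-MDSC and 4.60-fold in M-MDSC. The ratio of the mean totals, newborn over adult, was 11.2 and 12.5. Newborn M-MDSC replicate 2 held the highest total, 51820.3 CPM, and it was the highest library of its group for 57 of 65 members with counts. Adult M-MDSC replicate 28 was the highest of its group for 41 of 59. In bulk samples, fewer cells that express a gene and less of its RNA per cell cannot be told apart.

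**Figure D1:**
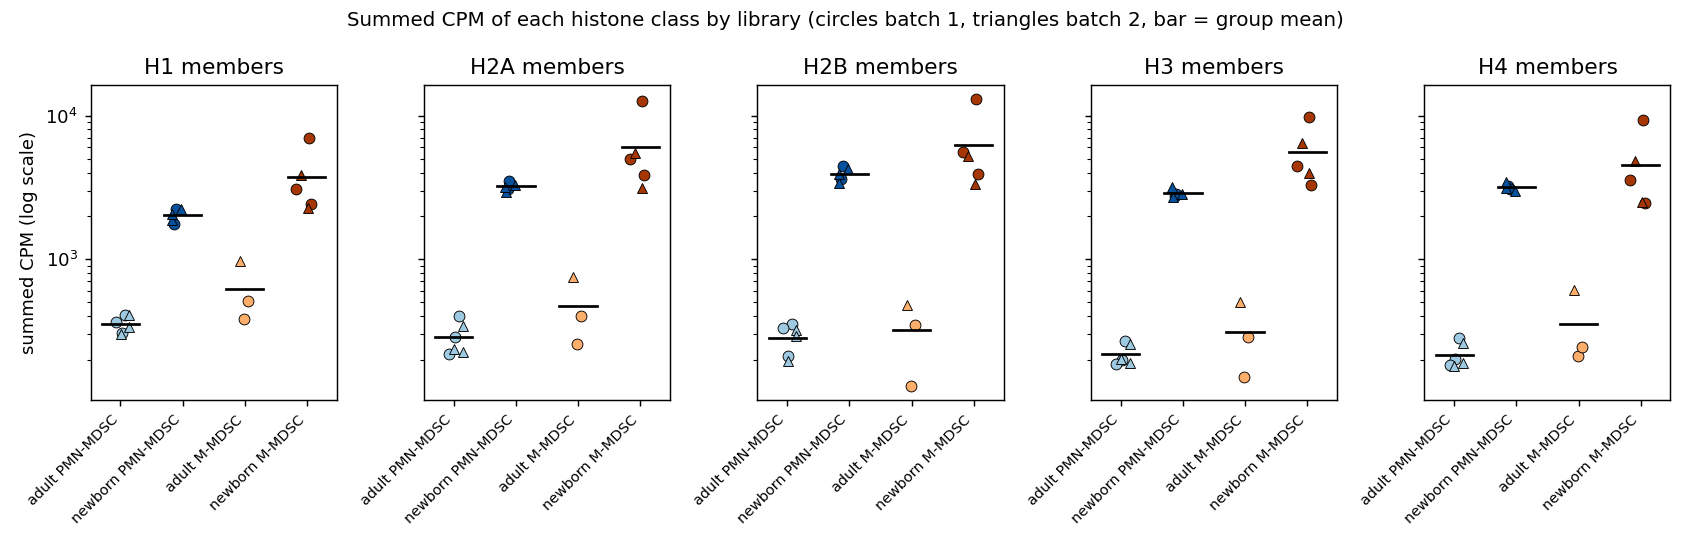
Summed CPM of the members of each histone class, one point per library, for the 4 groups, on a log scale. Newborn libraries lie above the adult libraries of the same cell type in each class, and newborn M-MDSC replicate 2 is the highest point in each of the 5 panels.

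All 5 classes were higher in newborns, the linker histones by the smallest factor. Newborn over adult, the ratio of mean summed CPM in PMN-MDSC was 5.73 for H1, 11.2 for H2A, 13.8 for H2B, 13.2 for H3 and 14.6 for H4. In M-MDSC the ratios were 5.96, 12.8, 19.4, 17.9 and 12.8 in the same order. Without adult M-MDSC replicate 28 all 5 ratios were higher, 8.32, 18.3, 26.1, 25.5 and 19.9. Without newborn M-MDSC replicate 2 all were lower, 4.64, 9.28, 14.1, 14.6 and 9.42. H1 accordingly made up less of the histone total in newborns. Its share of summed histone CPM was 26.2% ± 1.65 in adult and 13.3% ± 0.839 in newborn PMN-MDSC, and 30.5% ± 2.80 in adult and 14.5% ± 0.654 in newborn M-MDSC. The shares of H1 did not overlap between the ages in either cell type, and they are given without a test. The share of H2A was similar at both ages, 20.9% ± 2.80 and 21.1% ± 0.604 in PMN-MDSC. Per kilobase of coding sequence, over members with a coding length, the summed level in newborn PMN-MDSC was 3118 ± 327 CPM for H1, 6598 ± 1028 for H2A, 9699.7 ± 1066 for H2B, 5963 ± 393 for H3 and 10246 ± 579 for H4. On that length-corrected scale H2B and H4 stood above H2A and H3 in newborn PMN-MDSC, and H1 was the lowest class. The scale leaves out members without a coding length, among them Hist1h2aj and the H3 gene Hist1h3g, whose identifier was not in the annotation. In newborn M-MDSC H2A (14405 ± 9136), H2B (15042 ± 9094) and H4 (14697 ± 9244) were alike, with H1 at 5691 ± 2966. H3 stood at 11411 ± 5482 without Hist1h3g (303 to 957 CPM per library there), so its place below the other core classes is uncertain.

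Of the 64 members that passed the expression filter, 54 rose in newborn PMN-MDSC by edgeR's quasi-likelihood test with Benjamini-Hochberg adjustment over 12943 genes, against 27.1% of all genes tested called higher. No member fell (20.5% of all genes were called lower); at an unadjusted p under 0.05 the counts were 56 higher and 0 lower, and DESeq2 and limma-voom also called 0 lower. In M-MDSC 56 of 64 rose (15.9% of all genes) and 0 fell (14.3%), with 58 higher and 0 lower at an unadjusted p under 0.05. Limma-voom called 1 lower there and DESeq2 0. The rise was shared by 52 members, while the annotated pseudogenes Hist1h2aj and Hist1h2al were called in PMN-MDSC alone, 4 members in M-MDSC alone and 6 in neither. The median log2 fold change of tested members was 3.47 in PMN-MDSC, against -0.05 for all genes, and 3.85 in M-MDSC, against 0.01. With the 5 members that had no count in adult M-MDSC set to their lower bounds, the M-MDSC median was 3.74. Every newborn library stood above every adult one for 53 of 64 members in PMN-MDSC (28.4% of all genes) and for 50 of 64 in M-MDSC (12.8%). Without the batch 1 libraries of PMN-MDSC, 52 members rose in PMN-MDSC (2531 of 15926 genes), all of them among the 54. Members that passed the filter through the newborn libraries alone were bound to differ, so these counts describe the tested members and not all 68.

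**Figure D2:**
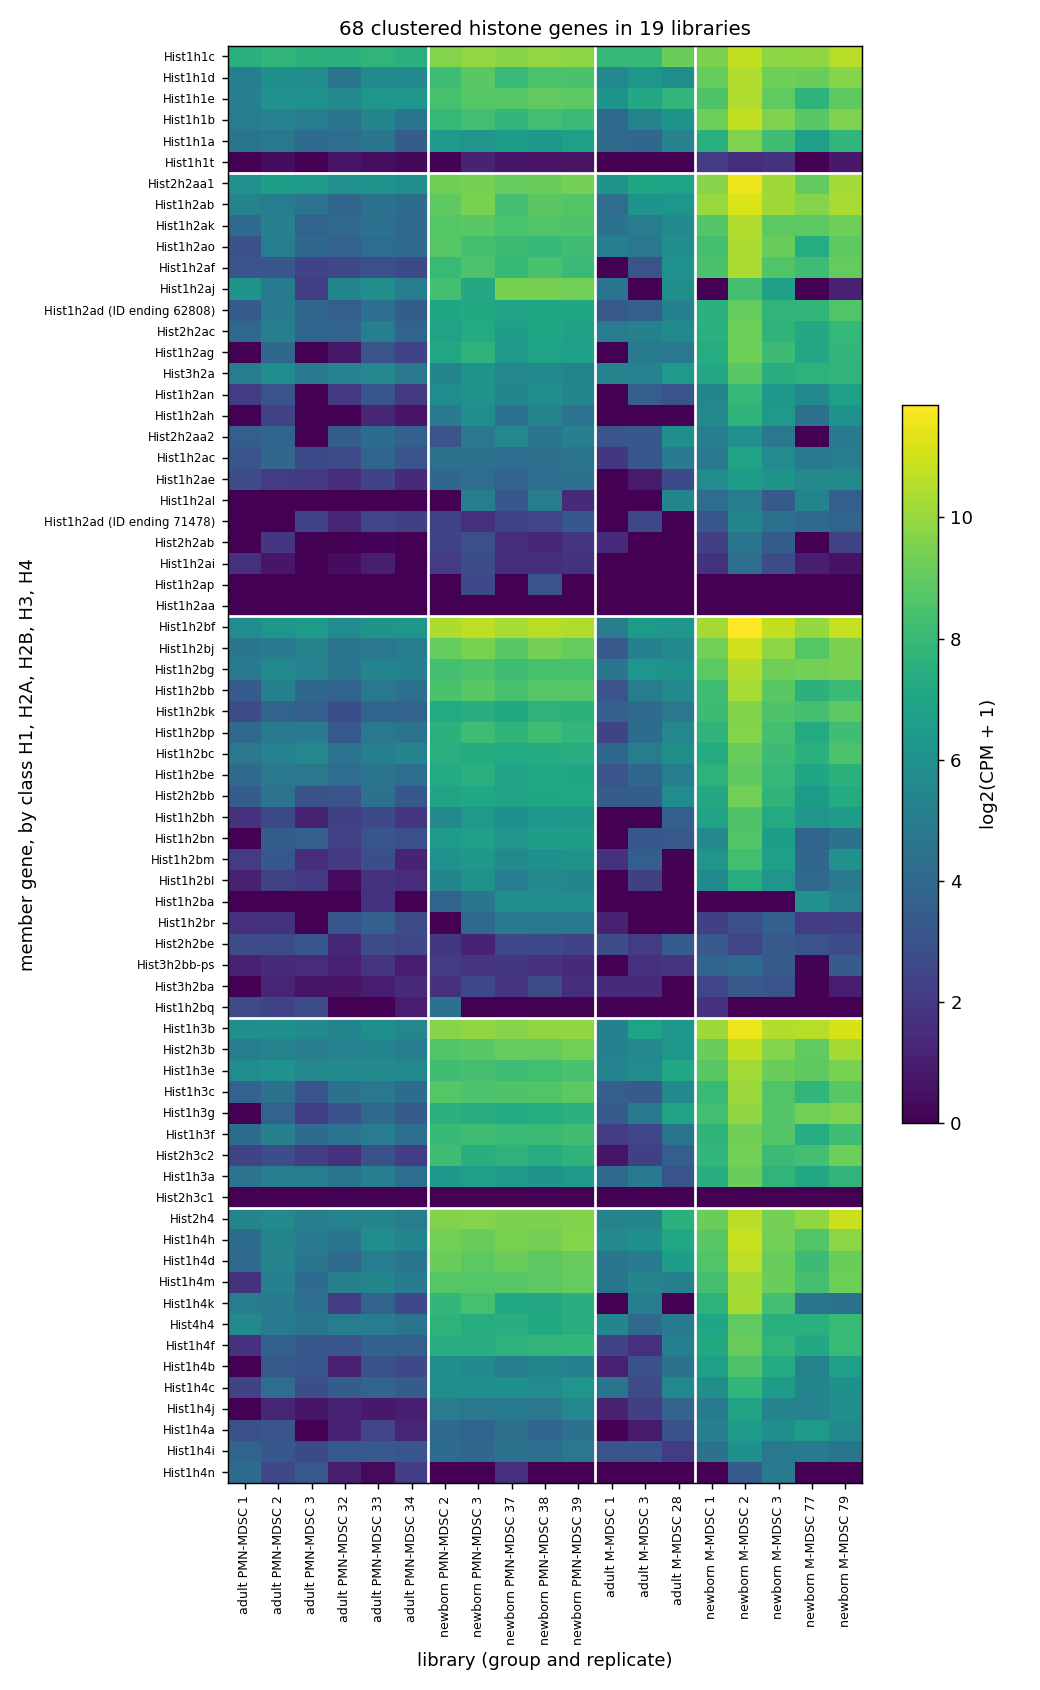
Level of each of the 68 members (rows, by class) in each of the 19 libraries (columns, by group), coloured by log2(CPM + 1). The newborn columns are brighter than the adult columns of the same cell type for most rows, and some weak rows are present in single libraries only.

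**Figure D3:**
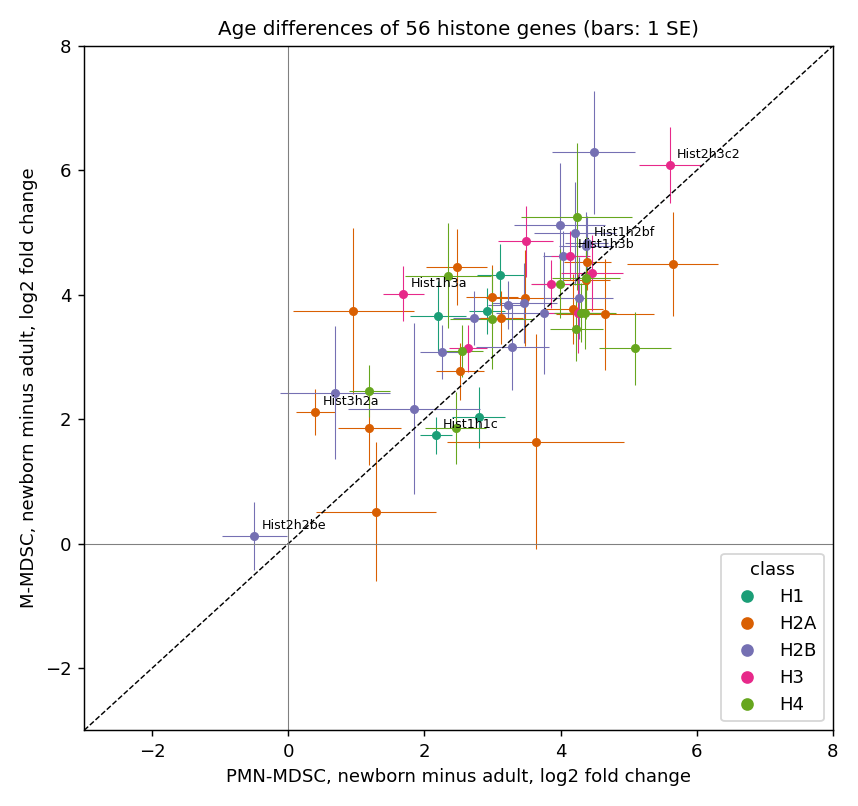
Age effect of 56 members in M-MDSC (vertical) against PMN-MDSC (horizontal), both as log2 fold change newborn over adult, coloured by class, with bars of 1 SE and a dashed line where both are equal, leaving out members with 0 to 3 counts in a group. Nearly all points lie above 0 on both axes, and Hist1h3a and Hist3h2a stand above the diagonal.

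Among the linker histones all 5 tested members rose in both cell types, by 2.17 to 3.12 on the log2 scale in PMN-MDSC and 1.74 to 4.32 in M-MDSC. Hist1h1c (chr13:23738808-23740367, plus strand), a somatic H1 subtype, measured 180.0 to 222 CPM (median 189) in adult PMN-MDSC and 794, 972, 864, 979.6 and 879 CPM in newborns. In M-MDSC it measured 239, 241 and 591 CPM in adults and 729, 1761, 899.7, 941 and 1534 CPM in newborns. The ages were separate in both cell types. Its log2 fold change was 2.17 ± 0.23 (SE; adjusted p = 4e-07) in PMN-MDSC and 1.74 ± 0.30 (adjusted p = 0.000222) in M-MDSC. Hist1h1d (chr13:23553262-23560686, plus strand), another somatic H1 gene, ran from 23.3 to 60.1 CPM (median 49.3) in adult PMN-MDSC to 288, 448, 260.1, 360.4 and 344 CPM in newborns. Its M-MDSC levels were 45.5, 75.1 and 55.7 CPM in adults and 529, 1382, 601, 577 and 832 CPM in newborns. All newborn libraries again exceeded all adult ones, with log2 fold changes of 2.92 ± 0.27 (adjusted p = 5.49e-08) and 3.74 ± 0.37 (adjusted p = 6.42e-07). Hist1h1b (chr13:21779883-21780625, minus strand) had 23.3 to 40.9 CPM (median 30.9) in adult PMN-MDSC and 243, 307, 225, 303 and 269 CPM in newborns. Its levels in M-MDSC were 15.4, 39 and 68.2 CPM in adults and 592, 1735, 765, 436 and 763 CPM in newborns. Newborn M-MDSC replicate 2, at 1735 CPM, stood apart from the other 4, yet the lowest newborn library was still above the highest adult one. The log2 fold changes were 3.12 ± 0.35 (adjusted p = 5.89e-07) in PMN-MDSC and 4.32 ± 0.49 (adjusted p = 2.6e-06) in M-MDSC. The testis-type Hist1h1t did not pass the filter, had 0 counts in adult M-MDSC and averaged under 2 CPM in each group.

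Of 19 tested H2A genes, 15 rose in PMN-MDSC and 16 in M-MDSC. Hist2h2aa1 (chr3:96245497-96246082, plus strand), which has a near-identical copy in Hist2h2aa2, measured 58.5 to 95.1 CPM (median 64.8) in adult PMN-MDSC and 623, 685, 535, 585 and 657 CPM in newborns. In M-MDSC it had 70.2, 124 and 118 CPM in adults and 843, 3037, 1133, 511 and 1196 CPM in newborns. The groups did not overlap by age in either cell type, and the fold changes on the log2 scale were 3.13 ± 0.32 (adjusted p = 1.63e-07) and 3.63 ± 0.43 (adjusted p = 4.37e-06). Hist2h2aa2 itself had log2 fold changes of 1.29 ± 0.88 (adjusted p = 0.243) and 0.52 ± 1.12 (adjusted p = 0.771), and no 50-base stretch of either copy is unique, so the division of reads between them is uncertain. Hist1h2ab (chr13:23751126-23751598, plus strand), a core H2A gene of cluster 1, showed 14.1 to 38.4 CPM (median 21.3) in adult PMN-MDSC and 485, 716, 315, 446 and 408 CPM in newborns. Adult M-MDSC had 18.1, 68.9 and 73 CPM and newborn M-MDSC 1052, 2294, 1130.4, 816 and 1272 CPM of this gene. Both cell types were separated by age, at log2 fold changes of 4.39 ± 0.35 (adjusted p = 6.71e-09) and 4.53 ± 0.46 (adjusted p = 8.94e-07).

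Of the H2A members, 3 were called in the test between the cell types given below. Hist3h2a (chr11:58954685-58956830, plus strand), the H2A gene of cluster 3 whose upstream bases are printed above, had 25.6 to 53.1 CPM (median 34.2) in adult PMN-MDSC and 41.6, 67, 43.4, 49.2 and 40.0 CPM in newborns, and those ranges overlapped. Its M-MDSC libraries had 38.9, 36.9 and 82.4 CPM in adults and 142, 429.7, 177, 202 and 218 CPM in newborns, with no overlap. The log2 fold change was 0.39 ± 0.29 (adjusted p = 0.278) in PMN-MDSC and 2.12 ± 0.37 (adjusted p = 0.000305) in M-MDSC. Hist1h2ah (chr13:22035164-22035568, minus strand) had 0 to 3.96 CPM (median 0.280) in adult PMN-MDSC and 29, 59.2, 21.2, 39.9 and 22.2 CPM in newborns. It had no count in adult M-MDSC and 47.4, 209, 82.9, 19.7 and 64.6 CPM in newborn M-MDSC. Newborns stood above adults in both cell types. In PMN-MDSC the log2 fold change was 4.99 ± 0.69 (adjusted p = 1.47e-05), and in M-MDSC the pooled newborn level was at least 364-fold higher than the adult floor of 3 counts over the group (adjusted p = 3.7e-05). Hist1h2al (chr13:51202727-51203065, minus strand), a processed pseudogene in the annotation that lies apart from the main cluster on the same chromosome, had 0 counts in the 6 adult PMN-MDSC libraries and 0, 31.6, 8.70, 30.8 and 1.62 CPM in newborns. In adult M-MDSC only replicate 28 held counts (733), at 42.2 CPM, while newborn M-MDSC had 17.6, 31.4, 9.27, 39.6 and 11 CPM. The newborn PMN-MDSC level was at least 427-fold higher than the adult floor (adjusted p = 0.00108). Of its 906 counts 544 came from replicate 38, and the bound was 229-fold without that library and 208-fold without adult replicate 33. The M-MDSC ages overlapped (log2 fold change 1.10 ± 1.48, adjusted p = 0.622).

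Of 19 H2B genes, all tested, 14 rose in PMN-MDSC and 15 in M-MDSC. Hist1h2bf (chr13:23573736-23574196, minus strand) measured 51.9 to 92.4 CPM (median 72.3) in adult PMN-MDSC and 1355, 1648, 1268, 1509 and 1407 CPM in newborns. Its M-MDSC levels were 31.8, 86.3 and 75.1 CPM in adults and 1202, 3693, 1744, 998 and 1794 CPM in newborns. The ages did not overlap in either cell type, with log2 fold changes of 4.38 ± 0.31 (adjusted p = 1.9e-09) and 4.84 ± 0.43 (adjusted p = 2.03e-07). Hist1h2bj (chr13:22043214-22043676, plus strand) had 22.2 to 37.8 CPM (median 26.8) in adult and 537, 703, 456, 663 and 527 CPM in newborn PMN-MDSC. For M-MDSC the values were 8.77, 36.1 and 49.5 CPM in adults and 638, 2039, 902, 417 and 735 CPM in newborns. This core H2B gene rose by 4.37 ± 0.39 (adjusted p = 3.67e-08) and 4.79 ± 0.54 (adjusted p = 2.6e-06) on the log2 scale. Hist1h2bk (chr13:22035870-22036345, plus strand), whose upstream bases hold an octamer, had 5.48 to 13.8 CPM (median 11.7) in adult PMN-MDSC and 150.5, 178, 148, 209.8 and 193 CPM in newborns. M-MDSC held 11.5, 15.4 and 25.7 CPM in adults and 278, 781, 384, 330.0 and 459 CPM in newborns. It too was separated by age in both, at 4.04 ± 0.30 (adjusted p = 3.37e-09) and 4.62 ± 0.41 (adjusted p = 1.82e-07). Hist2h2be (chr3:96221119-96223738, plus strand), the olfactory variant gene, was chosen after its values were seen because it stood among the lowest fold changes in both cell types. It had 1.57 to 8.40 CPM (median 5.55) in adult PMN-MDSC, 2.74, 1.30, 4.83, 5.21 and 4.35 CPM in newborns, 6.03, 3.32 and 10.1 CPM in adult M-MDSC and 8.82, 4.49, 8.80, 7.17 and 6.08 CPM in newborn M-MDSC. The ages overlapped in both cell types, at log2 fold changes of -0.50 ± 0.48 (adjusted p = 0.407) and 0.12 ± 0.55 (adjusted p = 0.898). The sign of the first turned in batch 2 alone (0.31) and that of the second did so as well (-0.55, against 1 adult library).

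All 8 tested H3 genes rose in both cell types, with log2 fold changes of 1.69 to 5.61 in PMN-MDSC and 3.14 to 6.09 in M-MDSC. Hist1h3b (chr13:23752267-23752886, plus strand) had the smallest adjusted p of all members in both. It measured 39.5 to 61.7 CPM (median 52.5) in adult PMN-MDSC and 836, 950.4, 822, 946 and 949 CPM in newborns. In M-MDSC it measured 35.6, 116 and 74.7 CPM in adults and 1098, 3033, 1421, 1545 and 2262 CPM in newborns. No newborn library came near the adult range, and the log2 fold changes were 4.14 ± 0.29 (adjusted p = 1.23e-09) and 4.63 ± 0.39 (adjusted p = 1.12e-07). Hist2h3b (chr3:96268654-96269141, plus strand), an H3 gene of cluster 2 with no unique 50-base stretch, had 31.1 to 39.3 CPM (median 35.3) in adult PMN-MDSC and 415, 457, 534, 534 and 647 CPM in newborns. Its M-MDSC values were 36.2, 46.5 and 77 CPM in adults and 566, 1721, 792, 496 and 1214 CPM in newborns. It rose by 3.85 ± 0.29 (adjusted p = 3.5e-09) and 4.17 ± 0.39 (adjusted p = 3.41e-07) on the log2 scale. Hist1h3a (chr13:23761853-23762386, minus strand) had 18.6 to 32.7 CPM (median 26.9) in adult PMN-MDSC and 77.7, 101, 83.3, 68.2 and 87.5 CPM in newborns. M-MDSC had 15.4, 29.1 and 7.43 CPM in adults and 169, 566, 212, 134 and 212 CPM in newborns. The ages did not overlap in either, but the PMN-MDSC change, 1.69 ± 0.30 (adjusted p = 0.000145), was smaller than that of M-MDSC, 4.02 ± 0.44 (adjusted p = 2.16e-06), a difference tested below. Hist1h3g, whose identifier was not in the annotation used here, had 0 to 16.1 CPM (median 8.21) in adult PMN-MDSC and 183, 168, 151, 159 and 184 CPM in newborns. Its M-MDSC levels were 9.32, 26.6 and 121 CPM in adults and 303, 957, 414, 649 and 764 CPM in newborns. It rose by 4.26 ± 0.51 (adjusted p = 1.38e-06) and 3.70 ± 0.64 (adjusted p = 0.000246).

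Of 13 H4 genes, all tested, 12 rose in each cell type and Hist1h4n in neither. Hist2h4 (chr3:96261682-96263311, minus strand) had 30.8 to 48.5 CPM (median 39.6) in adult PMN-MDSC and 782, 815, 736, 737 and 783 CPM in newborns. In M-MDSC its values were 38.9, 40.7 and 189.6 CPM in adults and 583, 1564, 672, 938 and 1914 CPM in newborns. The ages were apart in both, at log2 fold changes of 4.29 ± 0.37 (adjusted p = 2.32e-08) and 3.71 ± 0.48 (adjusted p = 1.24e-05). Hist1h4h (chr13:23531050-23531519, plus strand), whose upstream bases hold no searched motif, had 17.5 to 55.8 CPM (median 34.3) in adult PMN-MDSC and 638, 547, 704, 653 and 813 CPM in newborns. M-MDSC libraries had 47.2, 60.2 and 131 CPM in adults and 452, 1829.8, 644, 397 and 888 CPM in newborns. This H4 gene rose by 4.23 ± 0.39 (adjusted p = 5.88e-08) and 3.44 ± 0.51 (adjusted p = 5.19e-05). Hist1h4j, another H4 gene, had a mean of 0.815 ± 0.477 CPM in PMN-MDSC of adults and 31.3 ± 7.81 in those of newborns, the largest fold change of its class there (5.10 ± 0.53, adjusted p = 2.27e-07).

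Several weakly expressed members had no count in some group, and reads of their paralogs may have been divided among them. Hist1h2aa and Hist2h3c1 had 0 counts in all 19 libraries. The testis H2B gene Hist1h2ba had no count in adult M-MDSC and in the 3 batch 1 newborn M-MDSC libraries, but 1323 and 934 counts in the batch 2 libraries. Its pooled newborn M-MDSC level was at least 312-fold higher than the adult floor (adjusted p = 0.0145), a value that rests on those 2 libraries. In PMN-MDSC it rose by 7.05 ± 1.31 (adjusted p = 0.000289), with counts in 1 of 6 adult and in all 5 newborn libraries. Against the same kind of floor, newborn M-MDSC stood at least 10.8-fold higher for Hist1h2ai and at least 10.5-fold higher for Hist1h4n (not called, adjusted p = 0.107), and newborn PMN-MDSC at least 67.4-fold higher for Hist1h2ap, which was not tested and had counts in 2 of 5 newborn libraries. Of its 143 counts 131 came from newborn replicate 38, and the bound was 7.60-fold without that library and 32.9-fold without adult replicate 33. Of the 76 newborn counts of Hist1h4n 61 came from M-MDSC replicate 3, without which the bound was 2.17-fold, and for Hist1h2ai it was 7.13-fold without replicate 2. Each M-MDSC bound also rests on the depth of adult replicate 28: without it the adult floor is higher and the bounds 5.10 times smaller, 71.4-fold for Hist1h2ah, 61.2-fold for Hist1h2ba, 2.11-fold for Hist1h2ai and 2.06-fold for Hist1h4n. Hist1h2br had 2 counts in adult M-MDSC, so its newborn ratio of 41.5 has a wide exact 95% interval, 11.3 to 345. Hist2h2ab had 3 counts there and a ratio of 22.7 (7.63 to 111). These bounds and intervals cover counting error only. Hist1h2aj was erratic between libraries of a group: in newborn M-MDSC its counts were 0, 486, 233, 0 and 29.

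The age effects of the cell types were compared by an interaction test in the same edgeR model. It called 3 members higher in M-MDSC (6.61% of all genes) and 1 lower (11.5%) out of 64 tested. The age effect of Hist1h3a was larger in M-MDSC by 2.33 ± 0.50 on the log2 scale (adjusted p = 0.00301), and that of Hist3h2a by 1.72 ± 0.46 (adjusted p = 0.0131). Hist1h2ah and Hist1h2al were called in opposite directions (adjusted p = 0.0365 and 0.0184), and each had a group without counts. The call of Hist1h3a was lost in batch 1 alone (adjusted p = 0.0998), and that of Hist3h2a in each batch alone (0.0869 in batch 1 and 0.0811 in batch 2, where adult M-MDSC had 1 library, replicate 28, assumed to vary like the other groups). Without the batch 1 libraries of PMN-MDSC 1 member was called higher and 0 lower (215 and 753 of 15926 genes). Hist3h2a then had an adjusted p of 0.0623. The Hist1h2ah call was lost in each batch alone, in limma-voom and without any one of 10 libraries. The Hist1h2al call rested on adult M-MDSC replicate 28, the only adult M-MDSC library with its counts, and turned to 0.51 without it. Without that replicate the test called 12 of 65 members higher (6.35% of all genes) and 0 lower (11.1%), so the count of members set against all genes depends on this library. The median difference over tested members was 0.50, against -0.06 for all genes.

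Between the cell types of one age, adults had 9 of 64 tested members higher in M-MDSC (14.1%, against 16.7% of all genes). They had 2 lower (3.12%, against 12.5%), so neither share was above that of all genes. Those higher were Hist1h1c, Hist1h1e, Hist1h2ab, Hist1h2af, Hist1h2al, Hist1h3g, Hist1h4h, Hist1h4j and Hist2h4. The 2 lower were Hist1h2ah and Hist1h2br, which had 0 and 2 counts in adult M-MDSC. Hist1h3g was 2.52 ± 0.53 higher in adult M-MDSC on the log2 scale (adjusted p = 0.00161), Hist1h2ab 1.25 ± 0.36 (adjusted p = 0.0139) and Hist1h1c 0.86 ± 0.26 (adjusted p = 0.0191). With 3 adult M-MDSC libraries these calls depended on replicate 28. Without it 0 members were higher and 4 lower (1334 and 916 of 13278 genes). Batch 1 alone gave 0 higher and 2 lower (779 and 589 of 11979 genes). Batch 2 alone called more members each way, but there replicate 28 is the 1 adult M-MDSC library. The replicate numbers as a block in place of batch gave 19 and 1 (2249 and 1833 of 12943 genes). Without the batch 1 libraries of PMN-MDSC 6 were higher and 3 lower (1166 and 1241 of 15926 genes). Without adult PMN-MDSC replicate 32 there were 5 higher, and without adult M-MDSC replicate 1 or newborn M-MDSC replicate 2 there were 15 and 14.

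In newborns 21 members were higher in M-MDSC (18.7% of all genes) and 0 lower (23.4%). At an unadjusted p under 0.05 edgeR counted 25 higher and 0 lower. DESeq2 called 0 members lower and limma-voom called 3, against 3366 and 3517 of 12943 genes. Hist3h2a led, at 2.28 ± 0.31 on the log2 scale (adjusted p = 1.03e-05), followed by Hist1h2bk at 1.38 ± 0.29 (adjusted p = 0.000758), Hist1h1b at 1.65 ± 0.35 (adjusted p = 0.001) and Hist1h3a at 1.45 ± 0.32 (adjusted p = 0.00134). By class the higher members were 3 of 5 H1, 7 of 19 H2A, 3 of 19 H2B, 6 of 8 H3 and 2 of 13 H4 genes. Mean summed H3 CPM was 5609 ± 2625 in newborn M-MDSC and 2872 ± 184 in newborn PMN-MDSC, and summed H4 was 4541 ± 2856 and 3166 ± 179. Replicate 2 stood high among the M-MDSC totals. Without the batch 1 libraries of PMN-MDSC 9 members were higher and 2 lower, and Hist1h3a lost its call (0.88, adjusted p = 0.148). Over all genes the calls were then 1233 higher and 3066 lower of 15926, and in batch 1 alone 1406 and 1825 of 11979. Batch 1 alone gave 12 higher and 1 lower, and batch 2 alone, with 1 adult M-MDSC library in its fit, also called some members lower.

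Members with a poly(A) hexamer changed less on the median than the others. The letters AATAAA were present past the stop codon in 15 of 59 members with a coding model, and the grouping was made after the values were seen, so it carries no test. Their models ran further past the stop codon, a median of 1213 bases against 74 for the other 44, of which 12 models hold no base there. A match could thus be found only where the annotation is long. Of the 13 tested members with the hexamer 10 rose in PMN-MDSC and 11 in M-MDSC, at median log2 fold changes of 2.35 and 3.10. Of the 42 tested without it 36 and 39 rose, at medians of 3.92 and 4.09, or 3.99 and 3.95 over the 35 that had more than 3 counts in each group. The hexamer set included Hist1h1c, Hist1h1d, Hist3h2a and Hist2h2be, whose fold changes lay below the medians of genes without it in both cell types. Its members Hist2h4 and Hist1h4j lay above that median in PMN-MDSC (4.29 and 5.10) and below it in M-MDSC (3.71 and 3.14). A stem-loop was found in 13 of the 15.

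**Figure D4:**
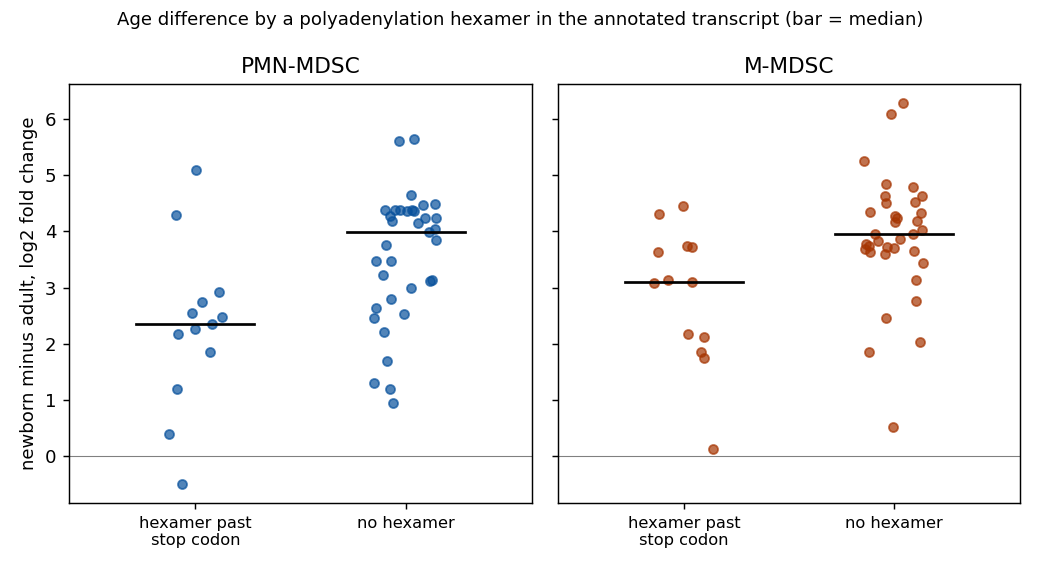
Log2 fold change, newborn over adult, of members with (13) and without (35) a poly(A) hexamer past the stop codon, in PMN-MDSC and M-MDSC; each point is a member and the bar is the median. The medians are 2.35 and 3.99 in PMN-MDSC and 3.10 and 3.95 in M-MDSC, and the points overlap widely.

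Some members lie head to head and are given here in pairs. The annotation held 13 pairs of an H2A and an H2B gene whose starts lie 173 to 306 bases apart on opposite strands, and 11 pairs had both genes tested. Both genes rose in 6 pairs in PMN-MDSC and in 8 in M-MDSC, only one did in 4 and 3, and neither did in 1 and 0. Of all 64 tested members 84.4% and 87.5% rose, beside 27.1% and 15.9% of all genes. Most pairs would thus hold risen genes whatever their position, and a trait of the pairs was not tested. Hist1h2ak and Hist1h2bn rose by 4.38 and 3.76 in PMN-MDSC. In contrast, Hist2h2ac rose by 2.52 (adjusted p = 9.88e-06) while its partner Hist2h2be had -0.50 (adjusted p = 0.407). Hist1h2bf rose by 4.38, and its partner Hist1h2ad (ENSMUSG00000071478) had 0.95 (adjusted p = 0.4). The difference within a pair was not tested. No source says that strand was used in counting, and where transcripts of a pair overlap their reads could be mixed.

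Sequence shared with paralogs limits the values of single members, and its effect on the totals was not tested. In 40 of 63 members under 60% of the 50-base stretches of the transcript, the read length, were unique among the annotated transcripts, and in 4 none was: Hist2h2aa1, Hist2h2aa2, Hist2h3b and Hist2h3c1. The rise was present at every level of uniqueness, beside 27.1% and 15.9% of all genes called higher in PMN-MDSC and M-MDSC. Of tested members with 60% or more unique stretches 17 of 21 rose in PMN-MDSC and 18 of 21 in M-MDSC (medians 2.54 and 3.10). Those at 20 to 60% gave 22 of 23 in each cell type (medians 4.14 and 4.23), and those under 20% gave 10 and 11 of 15 (medians 3.63 and 4.17).

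The genes that act around histone synthesis were examined as lists, chosen from textbook knowledge with earlier results of these data known. Of all genes tested, 27.1% were called higher and 20.5% lower in PMN-MDSC, and 15.9% and 14.3% in M-MDSC. These shares are the background of each list. The S phase and DNA replication list rose in 24 of 37 genes in PMN-MDSC and in 35 of 37 in M-MDSC, with none lower (medians 1.05 and 2.88). All 20 genes of the G2 and M phase list rose in both (medians 3.19 and 3.93). Rrm2, which makes deoxynucleotides, stood at 16.3 ± 5.13 CPM in adults and 192 ± 30.3 in newborns, a log2 fold change of 3.53 ± 0.22 (adjusted p = 4.02e-10) in PMN-MDSC. Uhrf1, which maintains DNA methylation at the fork, had 17.4 ± 11.2 CPM in adults and 287 ± 57.5 in newborns, a log2 fold change of 4.15 ± 0.33 (adjusted p = 5.84e-08) in M-MDSC. Of the DNA helicase subunits, Mcm3 had 35.1 ± 8.32 CPM in adults and 261 ± 29.5 in newborns, a log2 fold change of 2.92 ± 0.19 (adjusted p = 8.54e-09) in M-MDSC. Pola1, a subunit of DNA polymerase alpha, was among those not called there (1.64, adjusted p = 0.189).

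Upstream regulators moved in part. The list of histone gene transcription and cyclin E rose in 7 of 12 genes and fell in 1 in PMN-MDSC, and rose in 8 and fell in 0 in M-MDSC. E2f2, an activator of S phase genes, had 107 ± 15.8 CPM in adults and 476 ± 47.4 in newborns, a log2 fold change of 2.16 ± 0.13 (adjusted p = 2.85e-10) in PMN-MDSC. Ccna2, the cyclin A partner of CDK2, had 6.96 ± 2.40 CPM in adults and 209.6 ± 50.6 in newborns, a log2 fold change of 4.88 ± 0.33 (adjusted p = 1.21e-08) in M-MDSC, and Cdk2 itself rose by 2.04 ± 0.22 there (adjusted p = 1.55e-06). Ccne2, a cyclin E gene, was not called in PMN-MDSC (1.42, adjusted p = 0.0584). Of the 16 tested genes that act at the histone 3' end, 4 rose in PMN-MDSC with none lower, and 6 rose and 1 fell in M-MDSC, beside 27.1% and 15.9% of all genes called higher. Slbp, the stem-loop binding protein, had 55.2 ± 7.33 CPM in adults and 74.2 ± 4.96 in newborns, a log2 fold change of 0.43 ± 0.17 (adjusted p = 0.0521) in PMN-MDSC, which missed the threshold. In M-MDSC it had 35.9 ± 8.41 CPM in adults and 74.5 ± 19.2 in newborns, a log2 fold change of 1.07 ± 0.22 (adjusted p = 0.00134). Ncbp1, a subunit of the cap-binding complex, and Srrt, its partner, rose in both cell types. The changes were 1.10 and 0.90 in PMN-MDSC and 0.98 and 0.84 in M-MDSC.

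Chaperones that hand new histones to DNA moved in part. In PMN-MDSC 8 of 19 rose and 4 fell, beside 27.1% and 20.5% of all genes. In M-MDSC 11 rose and 2 fell, beside 15.9% and 14.3%. The share that fell was thus near that of all genes in PMN-MDSC and not above it in M-MDSC. Chaf1a, the large subunit of the chromatin assembly factor at the fork, had 9.53 ± 1.13 CPM in adults and 55.3 ± 5.77 in newborns, a log2 fold change of 2.53 ± 0.19 (adjusted p = 2.62e-09) in PMN-MDSC and rose by 3.57 ± 0.25 in M-MDSC (adjusted p = 1.99e-08). Asf1b, the proliferation-linked H3 and H4 chaperone, rose by 3.72 ± 0.36 in PMN-MDSC (adjusted p = 9.36e-08), whereas Nasp was not called (-0.39, adjusted p = 0.171). Daxx, a chaperone of replication-independent H3, fell in M-MDSC, by 1.89 ± 0.19 (adjusted p = 7.37e-07). Of the 10 tested variant histone genes outside the clusters 8 rose and 1 fell in each cell type, but their summed level changed less than that of the clustered genes. It was 1303 to 1936 CPM in PMN-MDSC of adults and 1999 to 2237 CPM in those of newborns. H1f0, the linker histone variant of differentiated cells, had 3.33 ± 1.59 CPM in adults and 91.2 ± 5.04 in newborns, a log2 fold change of 4.72 ± 0.21 (adjusted p = 6.92e-12) in PMN-MDSC. H2afx, the H2A variant phosphorylated at DNA breaks, had 34.3 ± 11 CPM in adults and 349 ± 149 in newborns, a log2 fold change of 3.32 ± 0.29 (adjusted p = 1.85e-07) in M-MDSC. H2afz was not called in PMN-MDSC (-0.23, adjusted p = 0.646).

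Markers of other cell types also differed between the groups, and apart from the values given here their part in the histone differences was not tested. Genes of erythroid cells, whose precursors divide in the newborn spleen, rose in 12 of 15 in PMN-MDSC and in 0 of 15 in M-MDSC. Of all genes 27.1% and 15.9% were called higher. Their summed level was 215 to 514 CPM in PMN-MDSC of adults and 3131 to 5616 CPM in those of newborns, and 74.6 to 544 and 41.3 to 2887 CPM in M-MDSC. In newborn M-MDSC, replicates 77 and 79 had erythroid sums of 41.3 and 125 CPM, within or below the adult range, with histone totals of 15282 and 25856 CPM. Replicate 2 had the highest erythroid sum of its group, 2887 CPM, and the highest histone total. It also had the highest S phase sum (5050 CPM) and progenitor sum (5588 CPM) of its group, and the lowest G2 and M phase sum (2633 CPM). In newborn PMN-MDSC, replicates 2 and 37 had the highest erythroid sums (5616 and 5363 CPM) and the lowest histone totals (14481 and 14032 CPM). Stem and early myeloid progenitor genes rose in 5 of 7 in PMN-MDSC and 6 of 7 in M-MDSC. Their sums were 15.9 to 31.2 CPM in adult and 98.5 to 155 CPM in newborn PMN-MDSC, and 100.4 to 218 and 2145 to 5588 CPM in adult and newborn M-MDSC. B cell genes fell in 10 of 10 in both, beside 20.5% of all genes in PMN-MDSC and 14.3% in M-MDSC. They summed to 5674 to 7642 CPM in adults and 621 to 939.8 CPM in newborns in PMN-MDSC, and to 2035 to 3629 and 101 to 364 CPM in M-MDSC. T cell genes fell in 3 of 9 in PMN-MDSC (55.9 to 127 CPM in adults, 42.8 to 62.4 CPM in newborns) and in 9 of 9 in M-MDSC (88.3 to 308 and 11.4 to 37.2 CPM). Neutrophil genes rose in 5 of 7 and fell in 1 in PMN-MDSC (6874 to 8301 CPM in adults, 35589.5 to 42014 CPM in newborns), and rose in 4 of 7 in M-MDSC (402 to 574 and 1157 to 5711 CPM). Monocyte genes rose in 1 of 7 and fell in 3 in PMN-MDSC, and fell in 4 of 7 in M-MDSC with 0 higher. They ran at 953 to 1536 and 1001 to 1213 CPM in adult and newborn PMN-MDSC, and at 3919 to 4820.2 and 2571 to 3297 CPM in M-MDSC. Klf1, an erythroid transcription factor, had no count in adult M-MDSC, and no other gene of these marker lists was at 0 in a whole group.

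**Figure D5:**
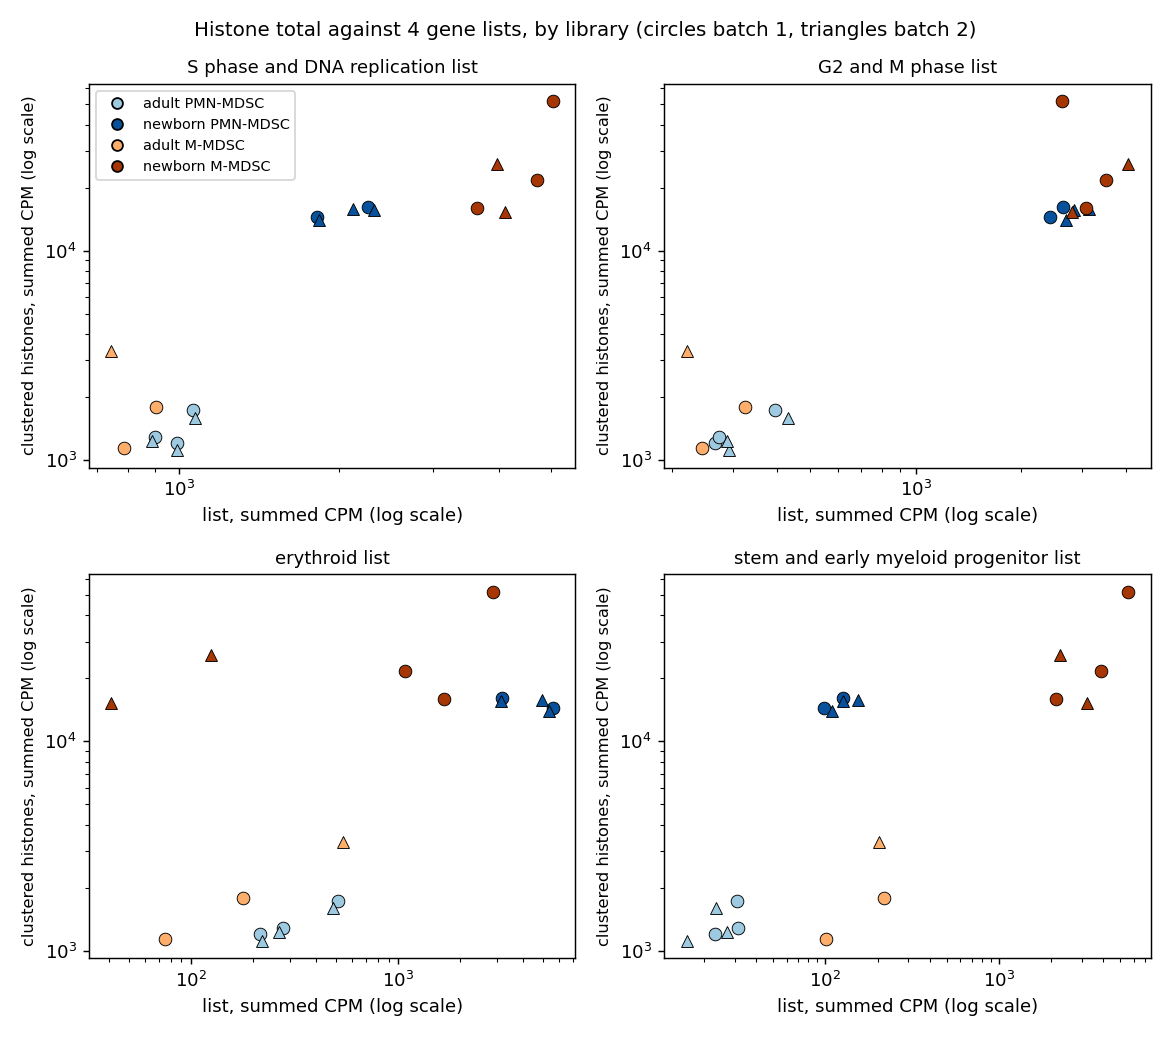
Summed CPM of the 68 histone genes (vertical) against the summed CPM of 4 gene lists (horizontal), one point per library, circles for batch 1 and triangles for batch 2, both axes on log scales. Newborn libraries lie high on the histone axis in each panel, and newborn M-MDSC replicates 77 and 79 are high in histones at low erythroid levels.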

How the data were processed

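RNA was sequenced from 19 libraries in 4 groups taken from the labels. Estimated counts per gene were what the authors deposited, in 1 table, and per the submitters' processing notes it was made with RSEM 1.2.3 on mm10, with DESeq2 named without a role. Which aligner and annotation served the counting is not given in the sources used here. The estimated counts were whole numbers, so rounding changed 0 values. RSEM divides reads among related genes, which makes single paralogs uncertain.

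Counts were scaled by TMM, filtered with edgeR's filterByExpr by group (12943 genes) and fitted with edgeR 4.0.16 in R 4.3.3 (quasi-likelihood, group and batch terms, 14 residual degrees of freedom). Benjamini-Hochberg adjusted p under 0.05 was called. Each SE is the fold change divided by the root of its F value. CPM are counts relative to the TMM-scaled library size, times 1e6, with SDs over libraries. A group without counts was given a floor of 3 counts over the group. The fit was tested on simulated data.

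The members and the gene lists were chosen with earlier results of these data known. Values in every library are given for up to 4 called members per direction and comparison, by smallest adjusted p at 10 CPM or more in the higher group, and for the 2 members of each class with the highest mean. From each list up to 3 called genes and 1 not called were eligible by smallest adjusted p, and not all are printed. Coordinates and transcripts came from GENCODE M21, upstream sequences from RefSeq's GRCm38.p6 table, matched by identifier or symbol. Uniqueness is the share of a gene's 50-base stretches found in no other annotated gene's transcripts.

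Alternatives covered the batch term, single batches, replicate numbers as a block, the batch 1 libraries of PMN-MDSC left out, other scalings, DESeq2 1.42.0, limma-voom 3.58.1, other filters and each library left out in turn. In batch 1, where replicate numbers repeat across groups, the deviations of 12 same-numbered pairs correlated at -0.05 to 0.18, with 2 pairs over 0.1. The nearest library of 9 of 10 batch 1 libraries bore the same number. Deviations within groups of so few libraries mirror each other, so these correlations cannot settle whether the numbers pair libraries. No label ties same-numbered libraries together, and the main model therefore holds no term for the number.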

Additional observations from a re-analysis of the deposited data

Results flagged for a closer look

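Of 68 group and measure combinations examined for a single library far from the rest, 9 had one, where chance gives about 1 in 20. That rate is a rough guide only, because members are part of the class totals and the combinations share libraries. Newborn M-MDSC replicate 2 stood apart in 7 of them. For single members it had 566 CPM of Hist1h3a (nearest library 212), 429.7 of Hist3h2a (nearest 218), 1735 of Hist1h1b (nearest 765) and 3037 of Hist2h2aa1 (nearest 1196). For class totals it had 12679 CPM of H2A (nearest 5471), 12989.7 of H2B (nearest 5588) and 51820.3 over all members (nearest 25856). Adult PMN-MDSC replicate 2 had 3.96 CPM of Hist1h2ah (nearest 1.42), from 12 counts, and newborn PMN-MDSC replicate 39 had 3189 CPM of summed H3 (nearest 2845). Without newborn M-MDSC replicate 2 the calls for age were 54 members higher in PMN-MDSC and 53 in M-MDSC (3660 and 1872 of 15136 genes).

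The age effect differed between the cell types, M-MDSC minus PMN-MDSC on the log2 scale, for Hist1h3a by 2.33 and for Hist3h2a by 1.72. For Hist1h2ah and Hist1h2al the fitted differences were 7.56 and -9.92. Each rests on a group without counts, so these fitted values are no bounds. Adjusted p-values of edgeR's test of the difference were 0.00301, 0.0131, 0.0365 and 0.0184 in the same order.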

How the results depend on the processing

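The rise of the members with age held under each alternative: 49 to 57 members were called higher in PMN-MDSC and 47 to 57 in M-MDSC, against 54 and 56, with at most 1 lower. Calls between the cell types, and of the difference of age effects, depended on the setting, and the causes were not tested. The calls over all genes, higher and lower, moved as well. In adults they were 2158 and 1614 of 12943 in the main fit and 779 and 589 of 11979 in batch 1 alone. In newborns they were 2414 and 3023, and 1406 and 1825. For the difference they were 856 and 1488, 146 and 262 in batch 1 alone, and 1441 and 1638 with DESeq2. Counts below are members called higher and lower, with further calls over all genes in parentheses. Without the batch term the difference gave 5 and 2 (885 and 1541 of 12943 genes), and adults 1 lower (1686). Batch 1 alone gave 1 lower with age in PMN-MDSC (1544 of 11979 genes). It gave 0 lower for the difference, 0 higher in adults and 12 and 1 in newborns. Batch 2 alone, with 1 adult M-MDSC library, gave 1 lower with age in M-MDSC, 5 and 11 for the difference, 24 and 7 in adults and 13 and 4 in newborns. Without the batch 1 libraries of PMN-MDSC the difference gave 1 and 0, and newborns 9 and 2. DESeq2 gave 7 higher for the difference and 6 lower in adults (2582 of 12943 genes). Limma-voom gave 1 lower with age in M-MDSC (1935 of 12943 genes) and 2 lower for the difference (1861). It gave 5 lower in adults (3589) and 3 lower in newborns (3517). With no expression filter newborns gave 1 lower (3457 of 23414 genes).

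With the replicate numbers as a block in place of batch, 54 members were higher in PMN-MDSC and 55 in M-MDSC, and adults gave 19 and 1; the difference of Hist1h2al had an adjusted p of 0.0575 (edgeR). No label ties same-numbered libraries together, the nearest library of 9 of 10 batch 1 libraries bore the same number, and whether the numbers pair libraries is not settled. Leaving out each library in turn gave 52 to 57 higher and 0 to 1 lower in PMN-MDSC, and 53 to 57 and 0 to 0 in M-MDSC. The difference gave 2 to 12 and 0 to 4, adults 0 to 15 and 0 to 5, and newborns 14 to 26 and 0 to 1.

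Signs of the age effects were compared for every tested member. Of the 54 called in PMN-MDSC none turned, and of the 56 in M-MDSC 1 did, Hist1h2ba, which has no M-MDSC count in batch 1. Of those not called, Hist1h2bq and Hist2h2be turned in PMN-MDSC, and Hist1h2aj, Hist1h2al, Hist1h2bq, Hist1h4n, Hist2h2aa2 and Hist2h2be in M-MDSC, an estimate of 0 being counted as a turn. Values are given for the members described in every library. The difference of Hist1h2al was 0.27 in batch 1 and ran from -10.53 to 0.51 with single libraries left out, the last without adult M-MDSC replicate 28. Its contrast in adults was 0 in batch 1 and its M-MDSC age effect -0.72 in batch 2. Hist2h2be had 0.31 (batch 2), 0.3 (without the batch 1 libraries of PMN-MDSC) and 0.03 (limma-voom) with age in PMN-MDSC. In M-MDSC it had -0.55 (batch 2), -0.01 (DESeq2), -0.41 (limma-voom), and -0.16 to 0.62 with single libraries left out, below 0 without adult replicate 3 and without newborn replicate 3 (-0.01).

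In the PMN-MDSC age comparison the all-gene median shifted by -0.17 with DESeq2 size factors and by -0.24 with upper-quartile scaling, and the split of all genes went from 3514 higher and 2657 lower to 2982 and 3304, and to 2756 and 3552. Upper-quartile scaling also moved the difference by 0.17 and newborns by 0.15. On unscaled totals the summed histone level of newborn PMN-MDSC was 11901 CPM. Batch 1 depth leaves members under about 3 CPM unseen in single libraries.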
